A study of Mus musculus with 6 samples.

Results

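The myosin light chain genes of embryonic mouse diaphragm were examined in 6 RNA-Seq libraries, as 10 genes of the 23073 with a value in the files: the regulatory light chain genes Myl2, Mylpf, Myl7 and Myl9, the essential light chain genes Myl1, Myl3, Myl4, Myl6 and Myl6b, and the kinase gene Mylk2. The list was chosen on the RPKM of the mutant and wild-type libraries, because Myl2 stood out there by its rise in the mutant. The levels and log2 fold changes of these genes between mutant and wild-type libraries are therefore a description, without a test.

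All libraries came from diaphragm muscle of embryos at E14.75. There were 2 wild-type libraries (erbB3 WT, replicates 5 and 6) and 2 mutant libraries (erbB3 KO, replicates 1 and 2), both of total RNA, and 2 Wnt1-Ribotag libraries (replicates 1 and 2) that carried Wnt1-Cre and Ribotag, were erbB3 WT, and held RNA precipitated with tagged ribosomes by an antibody against hemagglutinin. Mutant muscle lacks Schwann cells, and the mutation is carried by every cell of the embryo, muscle included. Wnt1-Cre acts in the neural crest lineage, from which Schwann cells derive, and each Wnt1-Ribotag library pooled the diaphragms of several Cre-positive littermates, with less RNA going into the library. The series calls the libraries biological replicates, and nothing else in the labels says which embryos or litters they came from. With 2 libraries in a group an exact permutation test of a single gene cannot give a two-sided p under 0.33, and p-values below are those of limma across all genes. The depth, derived from the floor values of the files, ran from 100178863 mapped reads in wild-type 5 to 230216660 in mutant 2.

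Myosin of striated muscle carries on each heavy chain an essential and a regulatory light chain, which stiffen the lever arm of the motor. Regulatory light chains are phosphorylated by light chain kinases, which in skeletal muscle increases force and in smooth muscle and non-muscle cells switches contraction on. Fast fibres use Mylpf and Myl1, slow fibres and the heart ventricle Myl2 and Myl3, and the atrium Myl7 and Myl4, and Myl4 is also the embryonic essential light chain of skeletal muscle.

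The libraries were first compared with their labels. Erbb3, the gene inactivated in the mutant, had an RPKM (reads scaled to gene length and to the mapped reads of the library) of 16.5 and 15.8 in wild-type 5 and 6, 21.5 and 11.9 in mutant 1 and 2, and 19.5 and 25.3 in Wnt1-Ribotag 1 and 2. The groups overlapped between mutant and wild-type, so the level of this transcript does not mark the genotype, and a value over the whole gene does not show which part of it is deleted. The Schwann cell transcription factor gene Sox10 had 2.89 and 2.16 in wild-type, 0.00854 and 0.0178 in mutant, and 15.5 and 32.2 in Wnt1-Ribotag libraries, in the order of the labels.

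All 14 skeletal muscle markers were expressed in all 6 libraries. They summed to 1615 and 1358 in wild-type 5 and 6, 2570 and 1188 in mutant 1 and 2, and 1458 and 1233 in Wnt1-Ribotag 1 and 2, with Acta1, skeletal alpha-actin, as the most abundant gene in each library. The transcription factor gene Myog, second by its mean, had 266 and 212, 313 and 232, and 160 and 172 in the same order. Mutant 1 thus had the highest sum of these muscle transcripts and mutant 2 the lowest, little below Wnt1-Ribotag 2. Acta1 alone had 1315 in mutant 1 and 507 in mutant 2. The single markers did not all follow the sum: in mutant 2, Ckm, Chrna1 and Tcap lay above both wild-type libraries, and 10 of the 14 lay below both. No share over all genes was taken for this count. The tagged-ribosome libraries, which the labels describe as Schwann cell-specific, held muscle transcripts at about the level of whole muscle. In such bulk samples fewer cells of a type and less RNA per cell cannot be told apart.

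The libraries also differed in sex-linked transcripts, which were looked up after the order of the fold changes was seen. Xist, transcribed from the inactive X chromosome of females, had an RPKM of 144 and 182 in wild-type 5 and 6, 146 in mutant 1, 0.0808 in mutant 2, and 71.4 and 52.8 in Wnt1-Ribotag 1 and 2. Y-linked Ddx3y was at 0.00209, 0.0117, 0.0086, 16.2, 9.9 and 7.97 in the same order. Mutant 2 therefore had the transcripts of a male, mutant 1 and both wild-type libraries those of females, and the pooled libraries those of both sexes, so a difference of mutant 2 from the rest cannot be told apart from sex.

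Myl2 (ENSMUSG00000013936), the regulatory light chain of slow fibres and of the ventricle, lies at chr5:122100951-122113472 on the plus strand of GRCm38. Wild-type 5 and 6 had an RPKM of 6.68 and 4.04, mutant 1 and 2 reached 46.7 and 24.5, and Wnt1-Ribotag 1 and 2 had 4.73 and 19.8. Both mutant libraries lay above the other 4, and the Wnt1-Ribotag libraries fell on either side of wild-type 5. The group means were 35.6 ± 15.7 in mutant, 12.3 ± 10.7 in Wnt1-Ribotag and 5.36 ± 1.86 in wild-type libraries (SD, n = 2 each). In this order the mutant and Wnt1-Ribotag ranges did not overlap, although mutant 2 and Wnt1-Ribotag 2 lay close, and the Wnt1-Ribotag and wild-type ranges overlapped. Within a group the higher library exceeded the lower by 1.65 times in wild-type, 1.91 times in mutant and 4.2 times in Wnt1-Ribotag muscle.

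On the scale of log2(RPKM + 0.5), which understates changes of low genes, the log2 fold change of Myl2 between mutant and wild-type muscle was 2.59, and the 4 pairs of libraries gave 1.80 to 3.38. It was 3.05 with mutant 1 alone, the library with the same sex-linked transcripts as the wild-type, and 2.13 with mutant 2 alone. Among the 14052 genes whose RPKM averaged 0.5 or more in this comparison, Myl2 stood at place 2. Just above it was Y-linked Eif2s3y at 2.70, whose RPKM was 20.7 in mutant 2 and 0.00865 in mutant 1, and just below it Ddx3y at 2.52. Myl2 was therefore first among genes outside the Y chromosome in that order, and its rise was present in both mutant libraries.

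The only other annotated gene across the Myl2 locus, Ccdc63 on the other strand, shares 60 bases of exon with it and had an RPKM of at most 0.104 in any library. Myl3 shares 95 bases of exon with Pth1r on the other strand, which had between 7.29 and 12.3, so reads of the shared bases cannot be assigned if the strand was not used in counting. Myl4 shares 3 bases with the predicted gene Gm22000, and the other 7 members share no exon with another gene.

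**Figure D1:**
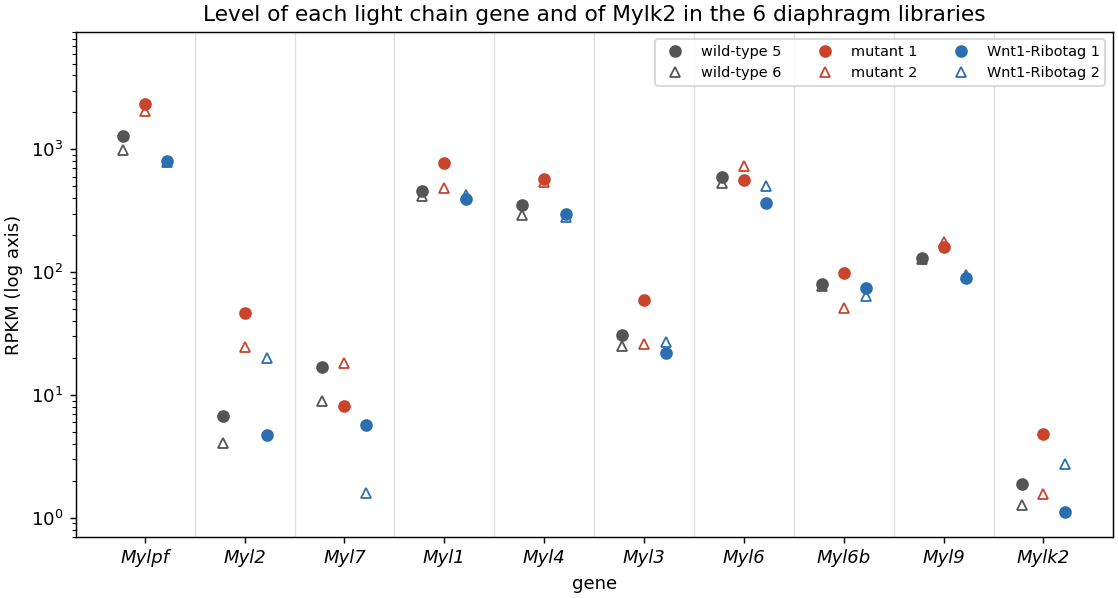
RPKM (log axis) of each light chain gene and of Mylk2 in the 6 libraries, with each point a library, filled circles the lower and open triangles the higher replicate number of a group. Mylpf lies highest, between 795 and 2325, and Myl2 is at 46.7 and 24.5 in the mutant libraries against 6.68 and 4.04 in wild-type.

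Mylpf encodes the fast skeletal regulatory light chain and was the most abundant member in every library. It had an RPKM of 1293 and 995 in wild-type 5 and 6, 2325 and 2068 in mutant 1 and 2, and 797 and 795 in Wnt1-Ribotag 1 and 2. The 3 groups did not overlap, with mutant muscle highest and Wnt1-Ribotag muscle lowest, and the log2 fold change between mutant and wild-type muscle was 0.95 (0.68 to 1.22 over the 4 pairs). Mylpf was thus nearly as high in mutant 2 as in mutant 1. The summed muscle markers, led by Acta1, were lower in mutant 2 than in either wild-type library, while Ckm, Chrna1 and Tcap were higher. The part of muscle content in the level of Mylpf was not tested.

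Myl7, the atrial regulatory light chain, had an RPKM of 16.9 and 8.96 in wild-type, 8.05 and 18.1 in mutant, and 5.73 and 1.59 in Wnt1-Ribotag libraries. The mutant and wild-type ranges overlapped, both mutant libraries falling outside the wild-type pair on opposite sides, and the log2 fold change of -0.03 turned to 0.09 with libraries scaled by the median of gene ratios. It was 0.53 without mutant 1, -0.59 without mutant 2 and 0.41 without wild-type 5. The fourth gene of the list of sarcomeric regulatory light chains, Myl10, was between 0.012 and 0.104 in the 6 libraries, too low for a fold change.

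Because the regulatory light chains compete for the same site on the heavy chain, their shares were taken within each library, where no scaling between libraries matters. Mylpf made up 97.4% to 98.7% of the summed RPKM of Myl2, Mylpf, Myl7 and Myl10 in the 6 libraries. Myl2 made up 0.507% and 0.401% in wild-type 5 and 6, 1.96% and 1.16% in mutant 1 and 2, and 0.585% and 2.43% in Wnt1-Ribotag 1 and 2. Myl2 therefore remained a minor transcript of the pool in the mutant, and its share was highest in a tagged-ribosome library and not in a mutant one. The share of Myl7 was 1.28% and 0.889% in wild-type, 0.338% and 0.856% in mutant, and 0.709% and 0.194% in Wnt1-Ribotag libraries. Myl7 exceeded Myl2 in both wild-type libraries and in Wnt1-Ribotag 1, and Myl2 exceeded Myl7 in the other 3.

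**Figure D2:**
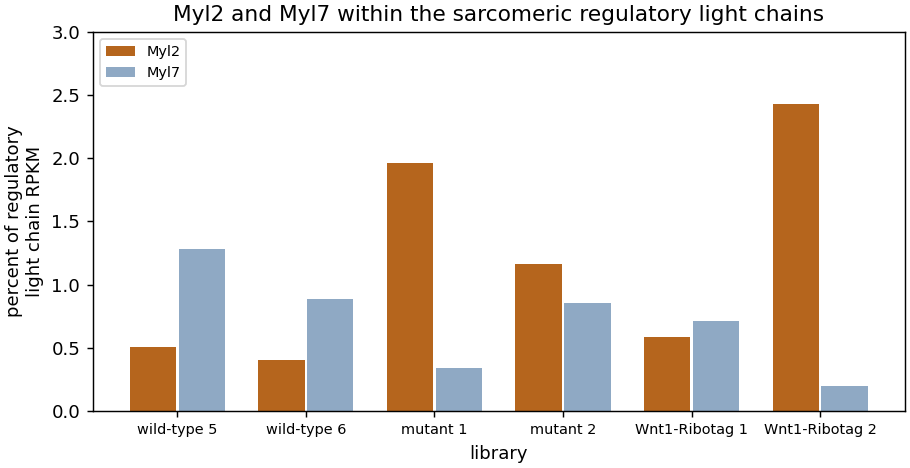
Myl2 and Myl7 as percent of the summed RPKM of the sarcomeric regulatory light chain genes (vertical axis, from 0) in each of the 6 libraries, a pair of bars per library. Myl2 is at 0.507% and 0.401% in the wild-type libraries and at 2.43% in Wnt1-Ribotag 2, and the remainder of each library is almost entirely Mylpf.

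Against the skeletal muscle markers of the same library, Myl2 stood at 4.14 and 2.98 RPKM per 1000 RPKM of summed markers in wild-type 5 and 6, 18.2 and 20.6 in mutant 1 and 2, and 3.24 and 16.1 in Wnt1-Ribotag 1 and 2. On this measure the 2 mutant libraries were close to each other, and Wnt1-Ribotag 2 lay nearer to them than to wild-type. The closeness depends on the sum that was divided by, led by Acta1 at 1315 in mutant 1 and 507 in mutant 2. The same division put Myl6, a light chain gene of most cells, at 218 in mutant 1 and 617 in mutant 2. In wild-type 5 and 6 Myl6 stood at 372 and 395. Mylpf stood at 801 and 733 in wild-type, 905 and 1740 in mutant, and 547 and 645 in Wnt1-Ribotag libraries, so that mutant 2 stood apart from mutant 1.

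The essential light chains of the sarcomere followed. Myl1, the fast skeletal essential light chain, had an RPKM of 460 and 420 in wild-type, 771 and 489 in mutant, and 395 and 425 in Wnt1-Ribotag libraries. The mutant libraries lay above the wild-type ones, mutant 2 by little, and the log2 fold change was 0.48 (0.09 to 0.88 over the pairs). Myl4, the embryonic and atrial essential light chain, had 354 and 291 in wild-type, 578 and 542 in mutant, and 295 and 284 in Wnt1-Ribotag libraries. Both mutant libraries were above all others, with a log2 fold change of 0.80 between mutant and wild-type muscle (0.62 to 0.99). Myl3, the slow and ventricular partner of Myl2, had 30.5 and 25.1 in wild-type, 59.4 and 25.9 in mutant, and 22.0 and 26.8 in Wnt1-Ribotag libraries. Only mutant 1 was high for Myl3, and mutant 2 lay between the wild-type libraries. Its log2 fold change of 0.50 became -0.09 without mutant 1.

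The shares within the essential pool were near each other in 5 libraries and different in mutant 2. Myl1 made up 54.5% and 57.1% of the summed RPKM of Myl1, Myl3 and Myl4 in wild-type, 54.7% and 46.3% in mutant, and 55.5% and 57.8% in Wnt1-Ribotag libraries. Myl4 made up 41.9% and 39.5%, 41.0% and 51.3%, and 41.4% and 38.6%, and Myl3 between 2.45% in mutant 2 and 4.22% in mutant 1. Mutant 2 was the library in which Myl4 exceeded Myl1, and the other 5 had Myl1 above Myl4. Summed over the regulatory and the essential pool, the ratio of regulatory to essential RPKM was 1.56 and 1.37 in wild-type, 1.69 and 2.00 in mutant, and 1.13 and 1.11 in Wnt1-Ribotag libraries, the 3 groups without overlap. As the regulatory pool is almost entirely Mylpf, this ratio mostly sets Mylpf against Myl1 and Myl4. Mylpf has 1062 bases of annotated exon, Myl1 2074 and Myl4 4637, and the part of length in the ratio was not tested.

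Light chains of smooth muscle and non-muscle myosin are found in most cells. Myl6, their essential light chain, had an RPKM of 601 and 536 in wild-type, 561 and 733 in mutant, and 368 and 505 in Wnt1-Ribotag libraries, and its log2 fold change between mutant and wild-type muscle was 0.18 and -0.02 without mutant 2. Its neighbour on chromosome 10, Myl6b, also found in slow fibres, had 79.6 and 77.6 in wild-type, 97.6 and 50.9 in mutant, and 74.5 and 63.4 in Wnt1-Ribotag libraries. The mutant libraries bracketed wild-type for Myl6b, and the log2 fold change was -0.16, or -0.04 after scaling by the median of gene ratios, 0.31 without mutant 2 and -0.62 without mutant 1. Myl9, the smooth muscle regulatory light chain, had 131 and 128 in wild-type, 160 and 175 in mutant, and 89.1 and 94.6 in Wnt1-Ribotag libraries. The 3 groups did not overlap for Myl9, with a log2 fold change of 0.37 between mutant and wild-type muscle (0.28 to 0.46).

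Of the same class, Myl12a and Myl12b, regulatory light chains of non-muscle myosin whose near-identical sequences may share reads, were not called between mutant and wild-type muscle (log2 fold change 0.15, adjusted p = 0.609, and 0.05, adjusted p = 0.898, limma). Smooth muscle markers, 7 genes with Acta2 the most abundant, summed to 377 and 392 in wild-type, 374 and 415 in mutant, and 228 and 185 in Wnt1-Ribotag libraries. The defining marker Myocd was at most 0.171 in any library. Myl9 and the sum of these markers, most of it Acta2, were both lowest in the Wnt1-Ribotag libraries, while Myh11 was highest there (1.58 and 2.99 against 1.36 and 1.25 in wild-type), and the part of smooth muscle cells in the level of Myl9 was not tested.

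Mylk2 encodes the skeletal muscle light chain kinase, which phosphorylates the sarcomeric regulatory light chains. Its RPKM was 1.90 and 1.26 in wild-type, 4.77 and 1.57 in mutant, and 1.12 and 2.72 in Wnt1-Ribotag libraries. Mutant 1 was high and mutant 2 lay between the wild-type libraries, so the log2 fold change of 0.68 became 0.01 without mutant 1. None of the 6 other genes of the list of kinases and phosphatase subunits passed between mutant and wild-type muscle. Of these, Ppp1cb, the catalytic subunit of myosin phosphatase, was most abundant, with 66.4 and 80.7 in wild-type and 83.3 and 77.2 in mutant libraries, and the kinase gene Mylk4 had 12.9 and 15.1 against 19.2 and 8.78. The smooth muscle kinase gene Mylk had 2.82 and 3.66 against 3.04 and 2.37, and the targeting subunit genes Ppp1r12a and Ppp1r12b had 12.8 and 15.1 against 14.9 and 12.3, and 4.25 and 4.55 against 4.95 and 2.92.

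Over the members, the median log2 fold change between mutant and wild-type muscle was 0.49, against -0.10 over all genes tested, and 8 of 10 lay above 0, against 33.0% of all genes. Both mutant libraries were above both wild-type libraries for 5 of the 10 (Mylpf, Myl2, Myl1, Myl4 and Myl9), against 12.7% of all genes, and below them for none, against 37.4% of all genes. All 10 passed the filter on low values. As this contrast chose the list, nothing is read from these counts. Scaling by the median of gene ratios moved the median of all genes from -0.10 to 0.00, and relative to it Myl2 was at 2.70, Mylpf at 1.07, Myl4 at 0.92, Myl1 at 0.60 and Myl9 at 0.49. For scale, 24 of the 14052 genes passed at an adjusted p of 0.05 in limma in this comparison, or 0.171%, 7 of them higher and 17 lower in mutant muscle.

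Slow, fast and developmental contractile genes were taken as lists that hold none of the members. No gene of the 26 tested passed between mutant and wild-type muscle, and 7 had an unadjusted p under 0.05 in limma, against 12.0% of all genes tested. Of the 26 log2 fold changes 22 were above 0, against 33.0% of all genes, with a median of 0.28. Mutant 1 stood higher, with a median difference from the wild-type mean of 0.65 against 0.12 in mutant 2. Of the 26 genes 23 lay above both wild-type libraries in mutant 1, while in mutant 2 13 lay above and 10 below. No share over all genes was taken for a single mutant library, so these counts have no background beside them. The median difference over all genes with an annotated length was -0.06 in mutant 1 and -0.15 in mutant 2. The slow genes, 10 tested of 12 listed, had a median of 0.39, the 12 fast genes tested of 13 listed 0.18 and the 4 developmental genes 0.28. In mutant 1 and 2 the medians against the wild-type mean were 0.56 and 0.18 for slow genes. They were 0.79 and -0.03 for fast genes, and 0.62 and -0.12 for developmental genes, so these turned sign in mutant 2. Tnnc1 of the slow list had no value used here, and Pln and Pvalb were under the filter.

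Among the most abundant slow genes, the troponin I gene Tnni1 had an RPKM of 290 and 249 in wild-type and 430 and 296 in mutant libraries, the troponin T gene Tnnt1 254 and 233 against 348 and 282, and calsequestrin Casq2 had 71.6 and 68.6 against 146 and 108. Casq2 did not pass (log2 fold change 0.84, SE 0.17, adjusted p = 0.134, limma), with both mutant libraries above wild-type. Csrp3, a protein of the Z-disc, had 54.9 and 42.2 in wild-type and 118 and 99.6 in mutant libraries, and at 1.16 (SE 0.17, adjusted p = 0.0608, limma) had the lowest adjusted p of the 26 without passing. Myoz2 was likewise higher in both mutant libraries at 0.99 (SE 0.17, adjusted p = 0.0961, limma) and did not pass. Among the fast genes, troponin C Tnnc2 had 345 and 268 in wild-type and 646 and 560 in mutant libraries, and its log2 fold change of 0.98 (SE 0.19) did not pass either (adjusted p = 0.111, limma). Troponin T Tnnt3, with 216 and 169 against 424 and 372, was at 1.05 without passing (SE 0.18, adjusted p = 0.0912, limma), and troponin I Tnni2, with 195 and 132 against 420 and 371, was at 1.29 without passing (SE 0.21, adjusted p = 0.0783, limma). These fast thin filament genes had values in both mutant libraries above both wild-type ones, as Mylpf had. Tropomyosin Tpm1, with 197 and 208 against 240 and 235, was also higher in both. Of the 12 fast genes tested, 5 had both mutant libraries above both wild-type ones, against 12.7% of all genes, and for 7 the groups overlapped. Mutant 2 lay below both wild-type libraries for 5 of the 12, a count without a share over all genes beside it. Of the developmental genes, cardiac actin Actc1 had 723 and 661 in wild-type and 946 and 744 in mutant libraries, and troponin T Tnnt2 had 237 and 193 against 341 and 239.

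Heavy chain genes, whose products bind the light chains, were placed differently. Slow Myh7 had 44.9 and 38.6 in wild-type, 60.2 and 22.6 in mutant, and 57.0 and 33.3 in Wnt1-Ribotag libraries. Embryonic Myh3 had 257 and 224 in wild-type, 353 and 188 in mutant, and 394 and 295 in Wnt1-Ribotag libraries, and neonatal Myh8 106 and 95.2, 206 and 72.3, and 294 and 226. For these 3 genes mutant 1 lay above and mutant 2 below both wild-type libraries.

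The mutant libraries were also compared by the length of the genes, as a description. Of 16 contractile and skeletal muscle marker genes with under 3000 bases of annotated exon, a limit chosen after the values were seen, 10 lay above both wild-type libraries in mutant 2 and 3 below. Of 24 longer ones 6 lay above and 17 below, while in mutant 1 15 of the 16 and 22 of the 24 lay above. These counts too have no share over all genes beside them. The median difference from the wild-type mean was higher in mutant 1 than in mutant 2 in both classes, at 0.97 against 0.23 in the shorter and 0.56 against -0.54 in the longer genes. Over the 13638 genes tested that have an annotated length, the median log2 difference of mutant 2 from the wild-type mean was 0.00 in the shortest of 4 equal classes of exon length and -0.25 in the longest, against -0.02 and -0.08 in mutant 1. Among the members, the 2 with over 3000 bases, Myl4 (4637) and Myl6 (3187), were at 0.76 and 0.37 in mutant 2. Of the 8 shorter ones, Myl2 (1950) was at 2.13, Mylpf (1062) at 0.87, Myl7 (590) at 0.53, Myl9 (1162) at 0.44 and Myl1 (2074) at 0.16, and Mylk2 (2951), Myl3 (2044) and Myl6b (1847) were at 0.01, -0.09 and -0.62. The part of length or RNA quality in the levels of the light chains was not tested.

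**Figure D3:**
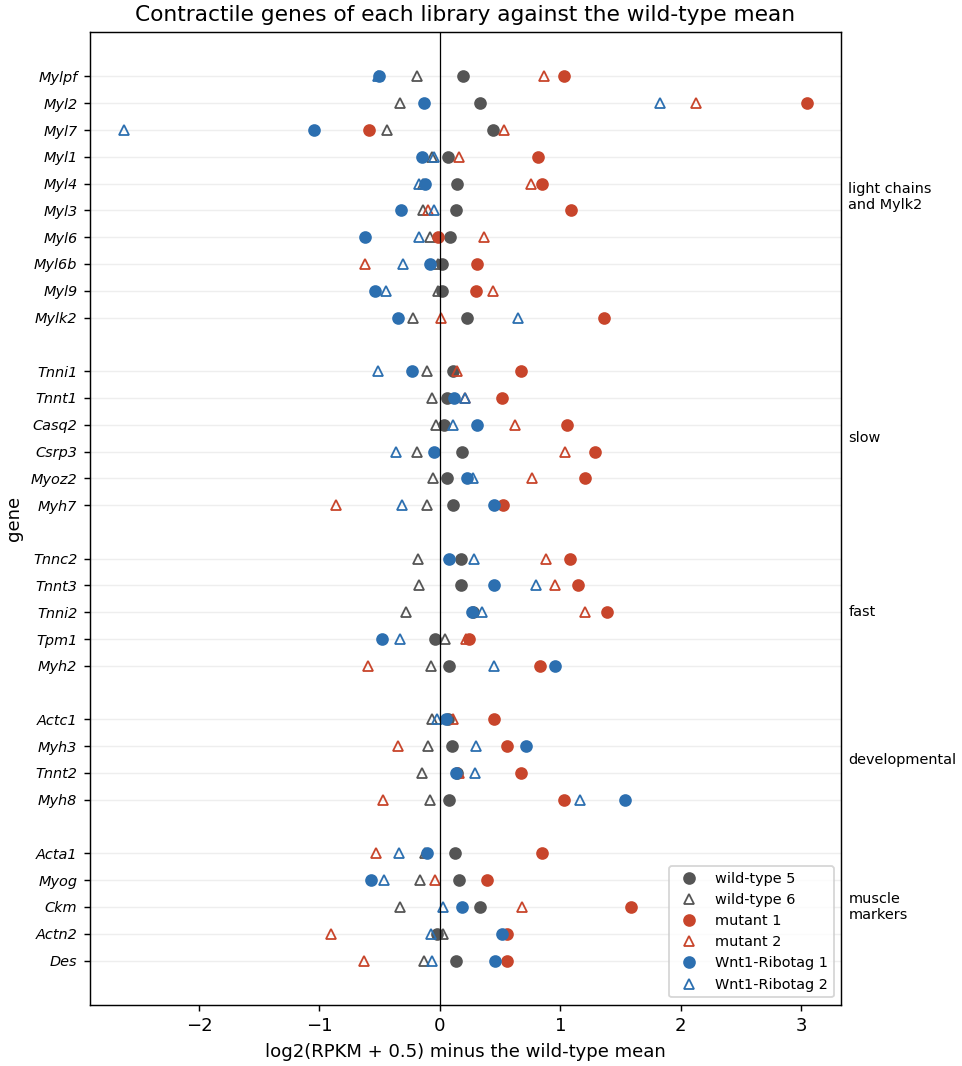
log2(RPKM + 0.5) of each library minus the mean of the 2 wild-type libraries (horizontal axis) for the light chain genes, Mylk2 and other contractile genes (vertical axis), each point a library. Myl2 is at 3.05 in mutant 1, 2.13 in mutant 2 and 1.83 in Wnt1-Ribotag 2, while heavy chain genes such as Myh8 are at 1.03 in mutant 1 and -0.47 in mutant 2.

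Several members are genes of the heart, so heart markers were read beside them. Of the 12, Myh6 was the most abundant, at 17.5 and 17.6 in wild-type, 21.8 and 11.0 in mutant, and 24.5 and 15.4 in Wnt1-Ribotag libraries, and the summed RPKM of the list was 22.6 and 23.9, 26.2 and 15.0, and 30.0 and 21.6, most of it Myh6. Of the defining markers, Nppa was at most 0.157, Nkx2-5 at most 0.0591 and Bmp10 at most 0.364 in any library, and Irx4 was at the floor in 3 of the 6. Nppb was at 0.828 in Wnt1-Ribotag 2, where Mybpc3 (0.395) and Tbx20 (0.933) were also highest, and at most 0.0531 in the other 5 libraries. Only 4 of the 12 were above the filter on low values between mutant and wild-type muscle, none of these passed, and Tnni3, cardiac troponin I, had 1.03 and 1.07 in wild-type, 1.25 and 1.04 in mutant, and 3.01 and 1.69 in Wnt1-Ribotag libraries. Of the 4, 2 (Hcn4 and Corin) were lower in both mutant libraries than in both wild-type ones, against 37.4% of all genes. For Myh6 and Tnni3 the groups overlapped. The part of heart tissue in the light chain levels was not tested.

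Other tissues of the dissection moved between the groups. All 8 liver markers were lower in both mutant libraries than in both wild-type ones, 2 of them (Afp and Alb) past the threshold in limma, and their summed RPKM was 489 and 150 in wild-type, 17.2 and 9.84 in mutant, and 268 and 190 in Wnt1-Ribotag libraries, with Afp the most abundant. Of 6 tendon markers 4 had log2 fold changes above 0 between mutant and wild-type muscle and 2 below, Tnmd and Kera passed as higher, and Thbs4 was lower in both mutant libraries (-0.38) without passing. The tendon sums were 94.7 and 87.9, 133 and 141, and 81.3 and 66.9, with Tnmd the most abundant in the mutant libraries (54.1 and 65.0, against 21.0 and 18.8 in wild-type), Fmod at -0.08, and the defining Scx between 16.2 and 28.5. The 8 Schwann cell markers summed to 30.4 and 28.9, 25.8 and 15.2, and 114 and 282. The most abundant of them was Fabp7 in both Wnt1-Ribotag libraries and Erbb3 itself in the other 4, so that the sums of the mutant libraries, with Erbb3 at 21.5 and 11.9, are mostly the mutated gene. Fabp7 was at 2.998 and 3.93 in wild-type against 0.393 and 0.372 in mutant libraries, and Sox10 and Fabp7 were among those that passed as lower in the mutant. The 8 erythroid markers, led by Hba-a1, whose reads cannot be separated from those of Hba-a2 with certainty, summed to 10300 and 5595, 7700 and 6421, and 4453 and 4258, and none passed. No gene, and so none of these markers, passed between mutant and wild-type muscle without the filter on low values or with all 6 libraries in the fit. The part of these tissues in the light chain levels was not tested.

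The comparison of Wnt1-Ribotag with wild-type libraries sets RNA precipitated with tagged ribosomes against total RNA. Because the precipitated RNA held muscle transcripts at about the level of whole muscle, the level of a muscle gene there does not show binding to tagged ribosomes. The comparison shares its wild-type libraries with that of mutant and wild-type muscle. The mutant libraries did not enter it, but the wild-type libraries had a part in the choice of the list, and a low wild-type level of Myl2 raises its fold change in both comparisons. The p-values of the members are therefore not independent of how they were chosen. None of the 10 passed at an adjusted p of 0.05 in limma, 2 (Myl7 and Myl9) had an unadjusted p under 0.05, and 1 of 14418 genes passed, or 0.00694%, with 2813 at an unadjusted p under 0.05. The members had a median log2 fold change of -0.19 against -0.05 for all genes tested. In Wnt1-Ribotag 1 the median difference from the wild-type mean was -0.32 in the shortest of the 4 classes of exon length and -0.07 in the longest, against 0.01 and -0.05 in Wnt1-Ribotag 2. The shortest class ends at 2674 bases and holds 7 of the 10 members. The part of length in the members' values was not tested. Both Wnt1-Ribotag libraries were below both wild-type libraries for 5 of the 10 (Mylpf, Myl6, Myl6b, Myl7 and Myl9), against 31.0% of all genes, and above them for none, against 23.3%.

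For Myl2 the log2 fold change between Wnt1-Ribotag and wild-type muscle was 0.85 (SE 0.67, adjusted p = 0.516, limma), with 3 of the 4 pairs of libraries above 0 and a range from -0.46 to 2.16. The value rested on Wnt1-Ribotag 2: without it the log2 fold change was -0.13, and without Wnt1-Ribotag 1 it was 1.83. In such a fit the single library left is assumed to vary as the wild-type libraries do, so no p-value is given. Myl7 stood at -1.83 (SE 0.59, adjusted p = 0.215, limma), lower in 4 of 4 pairs. It was -2.62 without Wnt1-Ribotag 1, -1.04 without Wnt1-Ribotag 2, -1.39 without wild-type 5 and -2.27 without wild-type 6. Myl9 had -0.49 (SE 0.15, adjusted p = 0.211, limma) and Mylpf -0.51 (SE 0.20, adjusted p = 0.258, limma), each lower in 4 of 4 pairs. The essential light chains Myl1, Myl4 and Myl3 had log2 fold changes of -0.10, -0.15 and -0.19, with groups that overlapped.

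Beside these, all 5 smooth muscle and non-muscle light chain genes of the list were lower in both Wnt1-Ribotag libraries, against 31.0% of all genes, Myl12a with 96.9 and 85.2 in wild-type against 50.8 and 58.1 (log2 fold change -0.74, SE 0.17, adjusted p = 0.178, limma). The kinase gene Mylk3, the cardiac light chain kinase, had 0.807 and 0.552 in wild-type, 0.638 and 0.396 in mutant, and 1.92 and 2.11 in Wnt1-Ribotag libraries, a log2 fold change of 1.10 between Wnt1-Ribotag and wild-type muscle that did not pass (SE 0.29, adjusted p = 0.184, limma). Of the contractile genes none of 26 passed, and 18 had log2 fold changes above 0, against 45.6% of all genes, with a median of 0.17 against -0.05. Myh8, at 1.35 (SE 0.20, adjusted p = 0.148, limma), and Casq1, at 1.13 (SE 0.19, adjusted p = 0.152, limma), were higher in 4 of 4 pairs while Mylpf was lower in 4 of 4.

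Between Wnt1-Ribotag and mutant libraries the genotype and the kind of RNA differed together, and the members are given as values only, since the mutant libraries chose them. All 10 had log2 fold changes below 0, from -0.04 for Myl6b to -1.46 for Mylpf, -1.74 for Myl2 and -1.81 for Myl7, against 47.0% of all genes tested. With a library left out Myl6b turned to 0.43 without mutant 1 and 0.08 without Wnt1-Ribotag 2, and Mylk2 from -0.53 to 0.14 without mutant 1. Myl2 moved to -0.76 without Wnt1-Ribotag 1 and -2.72 without Wnt1-Ribotag 2, and Myl7 to -2.59 and -1.02. Of the contractile genes, which were not chosen on these libraries by the same rule, 1 of 26 passed, against 171 of 14325 genes, or 1.19%. This was Ankrd2, a stretch-responsive muscle gene, with 20.9 and 16.2 in mutant and 4.52 and 2.16 in Wnt1-Ribotag libraries (log2 fold change -2.37, SE 0.35, adjusted p = 0.0374, limma). Wild-type 5 and 6 had 22.8 and 8.16, on either side of both mutant libraries and above both Wnt1-Ribotag ones. Ankrd2 did not pass between mutant and wild-type muscle (log2 fold change 0.41, adjusted p = 0.629, limma).

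The genes whose levels over the 6 libraries were most like those of Myl2 were found by Pearson correlation of log2(RPKM + 0.5) among 13118 other genes that averaged an RPKM of 1 or more. These were the phosphatase gene Acp1 (r = 0.992), the muscle gene Smpx (r = 0.983), Adprhl1 (r = 0.981), Pla2g16 (r = 0.981) and Trdn, encoding triadin of the calcium release complex (r = 0.979). Over 6 libraries of 3 groups such values are a description only. Adprhl1 had an RPKM of 3.76 and 2.43 in wild-type, 12.4 and 6.39 in mutant, and 2.96 and 7.82 in Wnt1-Ribotag libraries, and Smpx 33.5 and 28.8, 67.2 and 50.7, and 28.2 and 42.0. Like Myl2, both were high in the mutant libraries and in Wnt1-Ribotag 2 and low in Wnt1-Ribotag 1. Of the members Mylk2 was nearest to Myl2 (r = 0.827), followed by Myl1 (r = 0.784), Myl4 (r = 0.770) and Myl3 (r = 0.703), and Myl7 was at r = -0.10.

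The windows of 250 bases before the transcript starts of the members were read from RefSeq on GRCm38.p6 for sequence they share. Windows were found for 9 members, 11 windows in all, and Mylk2 had none. Both strands were searched for the E-box CANNTG, bound by MyoD and its relatives, and for the CArG box and the MEF2 site, motifs of 10 bases bound by SRF and MEF2 proteins. The E-box was in 8 of the 11 windows, against 66.2% of 32851 windows of all genes. The CArG box was in 4 of the 11 (Myl3, Myl7, Myl9 and 1 of 2 windows of Myl6), against 1.47%, and the MEF2 site in none, against 2.92%. A match is a description of the letters and not a bound site. The 2 windows of Myl2 hold neither CArG box nor MEF2 site, but their starts lie 8227 and 7762 bases from the nearest start annotated for Myl2 in GENCODE, so they may not be the promoter used in muscle.

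The windows of Myl3 and Myl7, a sarcomeric light chain of each class and the sarcomeric members whose window holds a CArG box, are shown with that motif in capitals. The levels of these genes went apart in mutant 1, where Myl3 was at 59.4 and Myl7 at 8.05. The window of Myl3 is chr9:110763428-110763677 on the plus strand and that of Myl7 chr11:5898783-5899032 on the minus strand.
Myl3: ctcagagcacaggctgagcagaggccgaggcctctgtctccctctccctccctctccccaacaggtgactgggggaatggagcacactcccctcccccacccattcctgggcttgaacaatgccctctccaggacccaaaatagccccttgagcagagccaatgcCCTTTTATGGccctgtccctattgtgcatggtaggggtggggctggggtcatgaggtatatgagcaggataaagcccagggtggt
Myl7: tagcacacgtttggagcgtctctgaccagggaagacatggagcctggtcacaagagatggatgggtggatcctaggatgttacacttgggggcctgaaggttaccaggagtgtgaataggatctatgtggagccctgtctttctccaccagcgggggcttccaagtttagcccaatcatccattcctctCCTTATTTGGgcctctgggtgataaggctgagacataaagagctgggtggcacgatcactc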

How the data were processed

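The authors sequenced diaphragm RNA, and the RPKM they deposited, scaled to the length of each gene and to the mapped reads, were used with the authors' mark for genes at a floor value. The submitters' processing notes name STAR and mm9, and no version. Each file holds 23076 entries, 3 of them without a value. Symbols and positions came from GENCODE M21 on GRCm38, joined by Ensembl identifier (21583 of 23073 matched), and no coordinate of mm9 was used. RPKM are not counts, and counting error could not be computed. Depth was derived from the floor values of microRNA genes, 223 in number, and 81.2% of them gave the shared depth.

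Genes whose RPKM averaged 0.5 or more in the libraries compared were tested as log2(RPKM + 0.5). The fit used limma 3.58.1 (R 4.3.3) and eBayes with its trend option, and p-values were adjusted by Benjamini-Hochberg over all genes tested, with a threshold of 0.05. The fit was tested on simulated data, but the outcome is not given here and no result rests on it. Tables and plots were made in Python 3.11.15. Named genes were the 10 members, the other genes of the light chain, kinase and phosphatase lists, contractile genes past the threshold or among the most abundant, the most abundant and defining markers of each tissue, the 5 genes most correlated with Myl2 and its neighbours in the order of fold changes. Xist, Myh7, Csrp3, Myoz2, Casq1, Myh11, Thbs4, Tnni3, Hcn4, Corin, Mybpc3, Tbx20, Kera, Ccdc63, Pth1r and Gm22000 were named after their values were seen. The members and lists were chosen with earlier results of these data known. Alternatives were other pseudocounts, filters, scaling, eBayes without a trend, all 6 libraries in the fit, a replicate block and each library left out.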

Additional observations from a re-analysis of the deposited data

How the results depend on the processing

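The log2 fold change of Myl2 in mutant vs. wild-type muscle was 2.68 and 2.49 with pseudocounts of 0.1 and 1, 2.70 after scaling by the median of gene ratios, and between 2.13 and 3.05 with any single library left out. Myl9 moved from 0.37 to 0.49 by the scaling.

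In mutant vs. wild-type muscle 24 genes passed. This was 0 without a filter on low values, where more genes were tested, 0 with all 6 libraries in the fit, and 10 to 106 with a library left out. In Wnt1-Ribotag vs. wild-type libraries 1 gene passed, 0 without the filter, 2 after scaling, 138 with all 6 libraries and 26 to 5965 with a library left out, where 1 library stands for its group. In Wnt1-Ribotag vs. mutant libraries 171 genes passed, 146 of them higher and 25 lower. Without the filter 112 passed, 13 higher and 99 lower. The number was 692 with all 6 libraries and 112 to 3672 with a library left out. Where fewer or more libraries entered, the cause was not tested.

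With the replicate number as a block, 842 genes passed in Wnt1-Ribotag vs. mutant libraries. Wild-type and mutant libraries share no number, and their 2 possible pairings as a block gave 574 and 29. Deviations of libraries from their group means correlated at r = 0.168 for shared numbers and at 0.12 or -0.12 for the pairings, and no label ties the numbers to litters.

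Among the members in Wnt1-Ribotag vs. wild-type libraries, 70 of 70 values with all libraries of the comparison kept their direction and stayed above the threshold in p. With a library left out 3 of 40 reversed: Myl2 to -0.13 without Wnt1-Ribotag 2, while it was 1.83 without Wnt1-Ribotag 1, and Mylk2 from 0.15 to -0.07 without wild-type 6 and -0.35 without Wnt1-Ribotag 2, while it was 0.65 without Wnt1-Ribotag 1. In such fits 1 library stands for its group, and their p-values are not read. Myl10 lay nearest the floor of the light chain genes, and the part of depth in the low levels was not tested.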
